A study of Mus musculus with 4 samples.

Results

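The transcriptomes of GFP-positive and GFP-negative cells were compared within a mouse embryonic stem cell line that carries a GFP-Zscan4c fusion gene under the Zscan4c promoter. The line derives from E14 (ES-E14TG2a), a male mouse embryonic stem cell line. The transgene is stably integrated, and the line was sorted by FACS into GFP-positive cells, labelled 2C-like, and GFP-negative cells, labelled pluripotent. The study's other line differs in that the same promoter drives GFP alone, and it was sorted in the same way. Both lines grew without serum in N2B27-based medium with a MEK inhibitor and a GSK3β inhibitor, and no untransfected control is used here. Both are clonal lines, so each stands for 1 clone, and each of the 4 groups holds 1 library of poly-A enriched RNA. The lines are called the fusion line and the GFP-only line from here on. The fusion line therefore gives 1 value on each side of the comparison, and a pair of values always gives GFP-negative cells before GFP-positive cells. No test was possible, no p-value is given, and every statement below describes these libraries only.

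Levels are given as TPM, transcript abundances scaled by transcript length and library, summed over the transcripts listed under a gene symbol. A gene was followed when it reached 5 TPM in either library of the fusion line and was above 0 in both, which held for 10775 of the 24190 symbols in the table. A further 206 symbols reached 5 TPM but were listed at 0 in 1 library, and these are given only as listed at 0. Ratios were taken as log2 of (TPM + 1) in GFP-positive over (TPM + 1) in GFP-negative cells, and every fold below is on that scale, which understates differences of low genes. "Higher" and "lower" mean 2-fold or more in GFP-positive cells unless values are given. In sorted bulk RNA, fewer cells of a kind and less RNA per cell cannot be told apart.

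Cultures of mouse embryonic stem cells hold a small, changing group of cells in which genes of the cleavage-stage embryo are transcribed, among them the Zscan4 cluster, whose products act in telomere maintenance and genome stability. Such 2C-like cells are entered from and return to the pluripotent state, and the transcription factor DUX is known to activate many of their genes and the MERVL endogenous retrovirus. They are also known for altered chromatin, for lower translation and for less of some pluripotency proteins, which need not be seen at the level of mRNA.

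Of the 10775 genes, 719 (6.67%) were higher and 324 (3.01%) were lower in the GFP-positive library, and 9732 (90.3%) lay within 2-fold. The median log2 ratio over all genes was 0.14, so that 67.4% of genes were above 0, and the central 90% of genes lay between -0.66 and 1.26. Scaling the libraries by the median of their gene ratios gave 636 higher and 391 lower genes with a median of 0.02, and quantile normalization gave 548 higher and 445 lower with a median of -0.04. The share of higher genes among all genes apart was thus 68.9% as deposited, 61.9% with median-ratio scaling and 55.2% with quantile normalization, and gene lists are therefore given relative to the median of all genes. Close to the fold of 2, within 0.1 on the log2 scale, lay 74 higher genes just inside and 115 just outside, and 49 lower genes inside and 55 outside. Genes of the known 2-cell families and gene models named Gm with a number made up 1620 of the 10775 genes and held 235 of the higher and 114 of the lower ones. Among the other 9155 genes, 484 (5.29%) were higher and 210 (2.29%) lower, and these are the main subject here.

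The share of genes apart differed by level. Of the 5461 genes with a geometric mean from 10 to 50 TPM, 208 (3.81%) were higher and 99 (1.81%) lower, whereas of the 533 genes at 200 TPM or more, 6 (1.13%) were higher and 10 (1.88%) lower. The SD of the log2 ratio over genes was 0.68 in the former and 0.54 in the latter class. Its median was 0.15 in the former and 0.03 in the latter. The 756 genes with a geometric mean under 5 TPM reached the floor in 1 library only, and their share is not read. They held 321 of the 719 higher and 112 of the 324 lower genes. The counts of genes apart thus rest in part on genes that passed the floor through 1 library. For such genes, some of them named below, the filter fixed the direction. The depth behind a TPM value is unknown, so no counting interval can be given. Many large ratios rested on a single transcript model: the most abundant transcript was listed at 0 in the opposite library for 111 of the 719 higher genes (15.4%) and 39 of the 324 lower genes (12%), but for 192 of the 9732 genes within 2-fold (1.97%). An exact 0 in such a table can be a failed estimate, so such genes are listed here. Of the genes followed and named below, this held for Atf6, Atp5f1, Cdc45, Cenpe, Eif2ak2, Eif2ak3, Gm28062, H2afy, Hspa8, Huwe1, Lamc1, Mtf2, Orc5, Phf8, Prmt3, Psmc2, Sin3a, Slc7a11 and Xrn1.

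The sorted gene and the markers of either state were read first, as a check of the labels. Zscan4c stood at 4.11 and 366 TPM, which the gate itself selects. Reads of the fusion transgene can also fall on Zscan4c. The symbols Zscan4f and Zscan4d, each under 0.2 TPM in the GFP-negative library, reached 369 and 362 TPM. Of these sums Zscan4-ps2-201 held 259 TPM and Zscan4-ps1-201 held 319 TPM, transcripts that the annotation gives to the separate loci Zscan4-ps2 and Zscan4-ps1. The gene models Gm6763 and Gm8764 stood at 2.08 and 663 TPM and at 2.37 and 578 TPM. Of the pluripotency markers read for this check, all but Klf4 differed by less than 1.3-fold. Values were 1138 and 1103 TPM for Pou5f1, 647 and 554 TPM for Sox2, and 299 and 359 TPM for Nanog. For Esrrb they were 289.5 and 281 TPM, and for Zfp42 328 and 333 TPM. Klf4 was the exception, 2.90-fold higher in the GFP-positive library, with 40.1 and 118 TPM. Among markers of other cell types, Gata4 stood at 0 and 2.13 TPM, Sox17 at 0.44 and 0.95 TPM, Col1a1 at 0.11 and 0.08 TPM, and Hba-a1 and Krt7 at 0 in both libraries. Other members of such lists were present. Of the trophectoderm list Tfap2c stood at 34.0 and 23.3 TPM, Tead4 at 21.7 and 13.5 TPM and Krt18 at 5.42 and 5.74 TPM. The neural markers Msi1 and Tubb3 stood at 43.5 and 55.2 TPM and at 32.9 and 27.1 TPM, and the mesoderm marker Twist1 at 3.10 and 6.24 TPM. The summed level of the 9 primitive endoderm markers in the table was 214 and 115 TPM, of which Sparc, a matrix glycoprotein, made up 154 and 33.7 TPM. The 6 fibroblast and feeder markers summed to 8.28 and 186 TPM, of which vimentin made up 178 TPM, while Pdgfrb and Twist2 were at 0 in both libraries. Thy1 of that list stood at 0 and 7.27 TPM, and at 0 and 11.9 TPM in the GFP-only line, and the part of such cells in the results was not tested.

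The largest differences outside the 2-cell families fell on a mixed set of genes. Psmc2, an ATPase subunit of the 19S proteasome on chr5:21785283-21803787 of GRCm38, stood at 0.03 and 96.6 TPM, a 94.7-fold difference, and in the GFP-only line at 0.35 and 105 TPM. Its transcript Psmc2-201 had a listed 0 on the GFP-negative side of both lines, although dividing cells need this subunit, and the other 34 proteasome subunits followed lay within 2-fold. Prmt3, which methylates arginines of a ribosomal protein, stood at 0.25 and 24.1 TPM, and in the GFP-only line at 4.48 and 21.2 TPM, and Prmt3-201 too had 0 listed on the GFP-negative side of both lines. Both genes were thus higher in the GFP-positive library of each line. Dppa5a, an RNA-binding protein of pluripotent cells with a single listed transcript, stood at 41.4 and 2280 TPM. Its values in the GFP-only line were 2729 and 2291 TPM, so that the fusion line's GFP-negative library was the only 1 of the 4 in which it was low.

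Other large increases were found in gene models that resemble retrocopies or tandem repeats. Kdm4dl, annotated as an unprocessed pseudogene of the histone demethylase family Kdm4, stood at 0.34 and 49.2 TPM, and at 1.02 and 14.5 TPM in the GFP-only line. Beyond the rule for named genes, 6 clone-named models that lie side by side on chromosome 7, 1 of them Gm9343 in the annotation, summed to 1.12 and 138 TPM, and in the GFP-only line to 0.89 and 73.0 TPM. The 28 Obox4 pseudogene symbols had a summed level of 1.56 and 474 TPM, and of 1.03 and 196 TPM in the GFP-only line. The 15 of them that were followed reached the floor through the GFP-positive library alone, so their direction was fixed by the filter. Near-identical copies share reads, so the split of these sums over copies is uncertain. Rn18s-rs5, an rRNA repeat on chromosome 17, stood at 46.7 and 4598 TPM, but at 2219 and 552 TPM in the GFP-only line, the opposite order.

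Among the largest decreases, Crtap, a component of the collagen prolyl 3-hydroxylation complex, stood at 121 and 3.10 TPM, a 29.9-fold difference. For Crtap the GFP-only line gave 168 and 114 TPM, so that only the fusion line's GFP-positive library was low. Snw1, a spliceosome component on chr12:87449910-87472274, stood at 41.1 and 3.28 TPM and in the GFP-only line at 39.5 and 1.93 TPM, lower in both lines and on its single listed transcript. Lamc1, the laminin γ1 chain of basement membranes, stood at 156 and 15 TPM, and at 71.8 and 30.1 TPM in the GFP-only line. In the fusion line the Lamc1 difference was carried by Lamc1-201, at 141 TPM in GFP-negative cells and listed at 0 in the other 3 libraries. Slc7a11, the cystine transporter, stood at 38.6 and 0.06 TPM, almost all on Slc7a11-203, a transcript with no annotated reading frame that is listed at 0 in the other 3 libraries. Cdc45, a subunit of the replicative helicase, stood at 50.9 and 2.58 TPM, with its main transcript at 44.9 TPM in GFP-negative cells and at 0 in the other 3 libraries. Atp5f1, a stator subunit of ATP synthase, stood at 117 and 5.93 TPM but at 6.58 and 139 TPM in the GFP-only line. Without transcripts listed at 0 in either library its log2 ratio was 0.35 in place of -4.09.

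Of the 206 genes listed at 0 in 1 library, 185 were at 0 in GFP-negative and 21 in GFP-positive cells. Rps3a1, a ribosomal protein, was listed at 0 and 499.9 TPM, and at 0 and 591 TPM in the GFP-only line. Since every cell uses Rps3a1, a listed 0 cannot be read as absence of its mRNA. Tmem92, Usp17lb and Usp17la, known genes of the 2C-like state, were likewise listed at 0 before 136, 99.98 and 50.8 TPM. In the other direction Pan2, a deadenylase subunit, was listed at 19.6 TPM and 0, and the histone gene Hist2h2ab at 22.3 TPM and 0.

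Genes of the heat shock response were read next. Of 33 heat shock and cytosolic chaperone genes, 3 were higher and 1 lower, with a median 0.08 above that of all genes on the log2 scale. Beside these counts and those of the lists below, 6.67% of all genes were higher and 3.01% lower in the fusion line. The inducible HSP70 genes Hspa1a and Hspa1b stood at 2.58 and 23.8 TPM and at 2.86 and 25 TPM. The values in the GFP-only line were 5.45 and 63.4 TPM for Hspa1a and 7.68 and 47.4 TPM for Hspa1b, so that both were more than 5-fold higher in the GFP-positive library of each line. Hsp90aa1, the inducible cytosolic HSP90, stood at 684 and 1379 TPM, and at 1134 and 1255 TPM in the GFP-only line. The constitutive Hspa8 lay the other way, at 555 and 123 TPM, and at 627 and 139 TPM in the GFP-only line. The difference lay on 1 transcript: Hspa8-201 held 493 TPM in GFP-negative cells and was listed at 0 in both GFP-positive libraries, and without transcripts listed at 0 in either library the log2 ratio of Hspa8 was 1.23 in place of -2.16. Whether reads of Hspa8-201 were given to other transcripts was not tested.

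The 250 bases before the annotated starts of Hspa1a and Hspa1b are shown because both genes were higher in the GFP-positive library of each line. Of the 250 bases, 247 are identical. They lie on the minus strand of GRCm38.p6 at chr17:34972157-34972406 for Hspa1a and chr17:34959239-34959488 for Hspa1b, as taken from RefSeq, with capitals for the letters GAANNTTC, a pair of inverted heat shock units.
Hspa1a: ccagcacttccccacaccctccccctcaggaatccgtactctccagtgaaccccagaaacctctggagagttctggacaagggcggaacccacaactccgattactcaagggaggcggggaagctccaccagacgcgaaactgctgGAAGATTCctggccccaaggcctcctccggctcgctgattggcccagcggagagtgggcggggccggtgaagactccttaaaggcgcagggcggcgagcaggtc
Hspa1b: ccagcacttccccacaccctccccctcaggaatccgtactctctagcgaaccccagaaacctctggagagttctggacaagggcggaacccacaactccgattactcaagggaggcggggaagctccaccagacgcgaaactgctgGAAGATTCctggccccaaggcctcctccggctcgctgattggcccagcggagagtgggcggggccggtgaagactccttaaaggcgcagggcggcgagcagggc
The motif reads the same on both strands. It was found 1 time in each window, 104 bases before the start, and in 2196 of 32817 windows of that length before annotated starts (6.69%).

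Genes of the endoplasmic reticulum and of translation control held few but large differences. Of 23 endoplasmic reticulum chaperone and unfolded protein response genes, 3 were higher and none lower, beside 6.67% and 3.01% of all genes. Their median was 0.03 above all genes. Atf6, a membrane-bound transcription factor of this response, stood at 0.12 and 9.64 TPM, and at 0.02 and 9.08 TPM in the GFP-only line. Its main transcript Atf6-201 was listed at 0 in GFP-negative cells, and the gene reached the floor through the GFP-positive library alone. Manf, a secreted factor induced by reticulum stress, stood at 26.6 and 61.6 TPM, whereas the abundant chaperones Calr, P4hb and Canx lay within 1.1-fold. Of 16 integrated stress response genes, the kinases Eif2ak3 and Eif2ak2 were the 2 that were higher, at 1.23 and 14.6 TPM and at 0.73 and 17.2 TPM. Both kinases reached the floor through the GFP-positive library alone, so their direction was fixed by the filter. Their main transcripts were listed at 0 in GFP-negative cells. The effector Atf4 stood at 220 and 254 TPM. Of 78 ribosomal protein genes, 1 was higher and 1 lower, and of 42 translation factors 1 was higher. That factor, Eef1b2 of the elongation factor 1 complex, stood at 59.7 and 383 TPM, but at 507 and 99.1 TPM in the GFP-only line.

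In the ubiquitin system, 5 of 35 ligases and adaptors were higher and 1 lower, beside 6.67% and 3.01% of all genes. Their median was 0.10 above all genes. In the GFP-only line 8 of the 25 above 0 in all 4 libraries were higher and 1 lower. Over all such genes 18.3% were higher and 5.49% lower there. Fbxo15, an F-box protein of pluripotent cells, stood at 147 and 456 TPM, and at 163 and 359 TPM in the GFP-only line. Huwe1, a large HECT ligase, stood at 34.3 and 76.2 TPM, and at 71.6 and 82.2 TPM in the GFP-only line. Among 35 ubiquitin and conjugating enzyme genes, 3 were higher and 1 lower. The lower gene, the polyubiquitin gene Ubb, stood at 178 and 57.1 TPM, and at 561 and 296 TPM in the GFP-only line. Ube2t, a conjugating enzyme of DNA crosslink repair, stood at 23.5 and 54.4 TPM, and at 19.7 and 42.2 TPM in the GFP-only line, so that it was higher in both.

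In the fusion line the list medians of RNA polymerase II and Mediator genes and of Polycomb genes lay above that of all genes. Other chromatin lists lay closer to it. Beside the counts here, 6.67% of all genes were higher and 3.01% lower. Of 38 RNA polymerase II and Mediator genes, 4 were higher and 1 lower, with a median 0.13 above all genes. Polr2a, the largest polymerase subunit, stood at 93.3 and 192 TPM, and Polr2i, a small subunit, at 34.8 and 10.6 TPM. Among 27 elongation genes, 2 were higher and 1 lower: Nelfa, of the pausing factor NELF and a known 2C-like marker, stood at 42.5 and 224 TPM, Ctr9 of the PAF1 complex at 21.6 and 87.0 TPM, and Ssrp1 of the histone chaperone FACT at 113 and 43.0 TPM. Ctr9 stood at 22.6 and 97.8 TPM in the GFP-only line, almost the same pair of values, and Ssrp1 at 118 and 126 TPM. Of 28 Polycomb genes, 3 were higher and none lower, and their median was 0.19 above all genes. Eed, the histone-binding subunit of PRC2, stood at 112 and 282 TPM, and its partner Mtf2 at 34.9 and 86.0 TPM. Both genes differed in the GFP-only line by less than 1.5-fold, at 224 and 284 TPM for Eed and 77.9 and 116 TPM for Mtf2. Of 40 chromatin remodeller genes, 2 were higher and 1 lower at a median 0.07 below all genes, and of 32 histone methyltransferase and demethylase genes 3 were higher and 1 lower at a median 0.02 below. In the GFP-only line 18.3% of the genes above 0 in all 4 libraries were higher and 5.49% lower. Of 29 such polymerase and Mediator genes 5 were higher and none lower, and of 22 Polycomb genes 2 and 1. Of 36 remodeller genes 8 were higher and 2 lower, and of 27 methyltransferase and demethylase genes 10 and 3.

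Among 30 histone acetylation and deacetylation genes, 2 were higher and 1 lower, with a median 0.05 below all genes. In the GFP-only line 9 of the 27 above 0 in all 4 libraries were higher and 2 lower. Brd2, an acetyl-lysine reader, stood at 44.1 and 148 TPM, but at 105 and 103 TPM in the GFP-only line. Sin3a, the scaffold of a deacetylase complex, stood at 71.3 and 13.0 TPM against 55.6 and 64.3 TPM in the GFP-only line. H2afy, which encodes the histone variant macroH2A1, was lower in both lines, at 56.4 and 10.6 TPM and at 43.7 and 12.2 TPM. The 26 heterochromatin and retroelement silencing genes held 2 higher and none lower, with a median 0.03 above all genes. In the GFP-only line 10 of the 21 above 0 in all 4 libraries were higher and none lower. The most abundant ligase of the ubiquitin list, the silencing cofactor Trim28, stood at 980 and 1184 TPM.

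Splicing factors as a list lay near all genes, with a median 0.08 below. Of 47 splicing factors, none was higher and 3 were lower by the symbols of the files, beside 6.67% and 3.01% of all genes. These 3 were Snw1, given above, Srsf2 and Hnrnpu. In the GFP-only line 2 of the 47 were higher and 3 lower, beside 18.3% and 5.49% of all genes. Srsf2, a serine and arginine rich splicing activator that controls its own level through unproductive splicing, stood at 324 and 67.6 TPM, and at 498 and 197 TPM in the GFP-only line. Its coding transcript Srsf2-201 stood at 207 and 60.1 TPM, and Srsf2-204, annotated as a target of nonsense-mediated decay, at 105 and 1.76 TPM. The GFP-only line had Srsf2-204 at 136 and 97.9 TPM. Hnrnpu, a nuclear matrix RNA-binding protein, stood at 169 and 47.5 TPM under its own symbol, and at 207 and 168 TPM in the GFP-only line. The annotation also gives it transcripts listed under Gm28062 and Gm16586, among them Hnrnpu-206, a nonsense-mediated decay transcript at 0 and 277 TPM, and at 0 and 132 TPM in the GFP-only line. With these the gene stood at 185 and 345 TPM, and at 229 and 313 TPM in the GFP-only line, so that it was not lower and 2 splicing factors were. Its coding transcript Hnrnpu-201 stood at 162 and 44.1 TPM, and at 198 and 122 TPM in the GFP-only line. Of 36 mRNA decay genes, Xrn1, the cytoplasmic 5′ to 3′ exonuclease, stood at 3.44 and 10.6 TPM, and at 1.29 and 14.9 TPM in the GFP-only line.

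In the fusion line the mitosis and the DNA replication lists lay on opposite sides of the median of all genes. Of 48 mitosis and kinetochore genes, 37 lay above the median of all genes, although only 2 were higher and 1 lower, and the list median was 0.19 above it. Cenpe, a kinetochore motor, stood at 5.39 and 28.4 TPM, Cdca8 of the chromosomal passenger complex at 26.5 and 112 TPM, and Kif22, a chromosome-arm motor, at 69.9 and 27.8 TPM. Cenpe stood in the GFP-only line at 13.1 and 23.6 TPM, Cdca8 at 108 and 102 TPM and Kif22 at 29.3 and 65.5 TPM. These named genes thus did not follow a shared order. In the GFP-only line, 12 of the 37 mitosis genes above 0 in all 4 libraries were higher and none lower. Over all such genes 18.3% were higher and 5.49% lower there. Of 47 DNA replication genes, 1 was higher and 2 lower, with a median 0.10 below all genes. In the GFP-only line, 10 of the 42 replication genes above 0 in all 4 libraries were higher and 1 lower. Mcm2, a helicase subunit, stood at 241 and 113 TPM, and Orc5 of the origin recognition complex at 16.8 and 45.5 TPM. Among 36 p53 target and apoptosis genes, 5 were higher and none lower, beside 6.67% and 3.01% of all genes. Their median differed from all genes by less than 0.01. In the GFP-only line 6 of the 31 above 0 in all 4 libraries were higher and 2 lower. Pmaip1, which encodes the BH3-only protein NOXA, stood at 2.06 and 9.10 TPM, and at 2.82 and 13.3 TPM in the GFP-only line.

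Germline and pluripotency genes were read as separate lists. Of 15 germline and piRNA genes, 4 were higher and none lower, beside 6.67% and 3.01% of all genes. Their median was 0.19 above all genes. In the GFP-only line 1 of the 5 above 0 in all 4 libraries was higher and none lower. Dazl, an RNA-binding protein of germ cells, stood at 8.71 and 31.5 TPM, and Stag3, the meiotic cohesin subunit, at 11.6 and 33.4 TPM. Of 33 core and naive pluripotency factors, 6 were higher and none lower, while the list median was 0.11 below all genes. Of the 33, 13 lay above the median of all genes and 17 above a log2 ratio of 0. Dppa2, which with Dppa4 acts upstream of Dux, stood at 3.02 and 66.1 TPM, and at 31.8 and 85.6 TPM in the GFP-only line. Tbx3, a T-box factor of naive cells, was higher in both lines, at 32.0 and 102 TPM and at 29.1 and 101 TPM. Klf4, a reprogramming factor, stood at 40.1 and 118 TPM but at 187 and 69.5 TPM in the GFP-only line. Sox3, a SoxB1 factor of the primed epiblast and neural lineage, was the only higher gene of 19 formative and primed epiblast genes, at 2.25 and 24.9 TPM, and at 4.69 and 29.2 TPM in the GFP-only line.

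Among signalling lists, WNT targets and components had 3 higher and 1 lower of 25 genes, beside 6.67% and 3.01% of all genes. In the GFP-only line 4 of the 21 above 0 in all 4 libraries were higher and 3 lower. Axin2, a negative-feedback target of β-catenin, stood at 4.33 and 16.8 TPM, and Tcf7, a nuclear effector of the pathway, at 17 and 3.15 TPM. Tcf7 was lower in the GFP-only line too, at 32.8 and 8.96 TPM, and both lines grew with a GSK3β inhibitor, which activates this pathway. Of 18 immediate early genes 3 were higher, with Jun at 2.19 and 13.1 TPM but at 6.39 and 6.32 TPM in the GFP-only line. None of the 17 above 0 in all 4 libraries was higher in the GFP-only line, and 4 were lower. The 23 TGF-beta, Nodal and BMP genes held none apart, and the 17 YAP and TEAD targets none apart at a median 0.14 below all genes.

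Genes of the matrix and the cytoskeleton differed either in both lines or in 1 library. Of 24 basement membrane and extracellular matrix genes, 2 were higher and 2 lower. P4ha2, a collagen prolyl 4-hydroxylase subunit, was higher in both lines, at 21.2 and 116 TPM and at 12.3 and 67.6 TPM, and Lamc1, given above, was lower in both. The matrix glycoprotein Sparc stood at 154 and 33.7 TPM, against 249 and 209 TPM in the GFP-only line. Vim, the intermediate filament vimentin, stood at 8.16 and 178 TPM, against 310 and 190 TPM in the GFP-only line. The only low library of the 4 was thus the fusion line's GFP-positive one for Sparc and its GFP-negative one for Vim.

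Several metabolic lists lay below the median of all genes without large differences. Before subtraction, the median log2 ratios were -0.07 for glycolysis, -0.02 for fatty acid, -0.003 for oxidative stress and 0.05 for respiratory chain genes. The median over genes was 0.15 from 10 to 50 TPM but 0.03 at 200 TPM or more. The part of level in these list medians was not tested. Of 23 glycolysis and glucose transport genes none was apart by 2-fold, but only 4 lay above the median of all genes, and the list median was 0.21 below it. Slc2a3, a high-affinity glucose transporter, stood at 674 and 468 TPM, and at 835 and 487 TPM in the GFP-only line. The 28 fatty acid genes and the 31 oxidative stress and glutathione genes also held none apart, at medians 0.16 and 0.14 below all genes. Gpx4, which removes lipid peroxides, stood at 722 and 382 TPM, and at 854 and 781 TPM in the GFP-only line. Of 62 nuclear respiratory chain genes, 1 was higher and 2 lower at a median 0.09 below all genes, whereas the 15 mitochondrially encoded genes had a median 0.35 above.

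**Figure D1:**
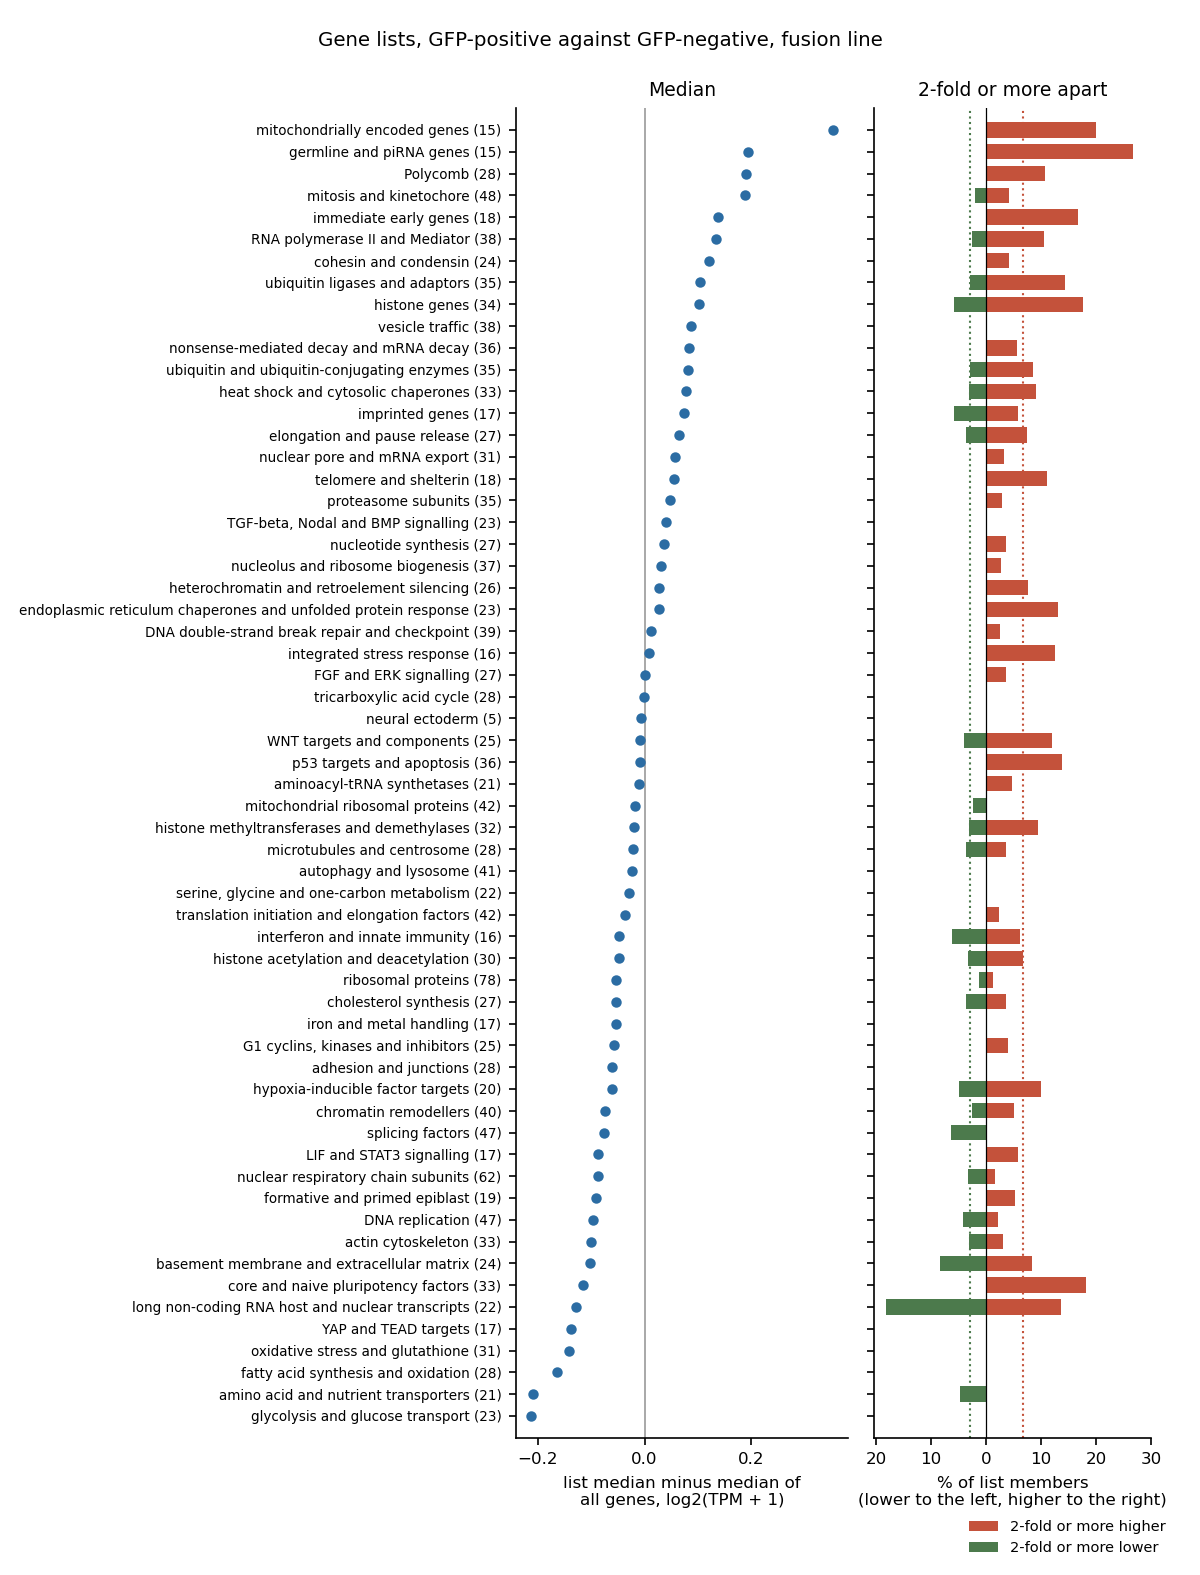
Left, the median log2 ratio of each of 60 gene lists minus the median of all 10775 genes; right, the percentage of list members 2-fold or more higher (red) and lower (green) in GFP-positive cells, with the number of members in brackets and dotted lines at 6.67% and 3.01%, the shares over all genes. Mitochondrially encoded genes lie farthest to the right and glycolysis and amino acid transporters farthest to the left; lists share genes and rest on 1 library a side.

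The GFP-only line gave a further sort with separate libraries, and 8473 of the 10775 genes were above 0 in all 4 libraries. In that line 1551 of these (18.3%) were higher and 465 (5.49%) lower. Of the 501 genes higher in the fusion line, 215 (42.9%) were also higher in the GFP-only line, which is 13.9% of the genes higher there, and 67 were lower there by 2-fold or more. Of the 267 lower genes, 69 (25.8%) were also lower in the GFP-only line, which is 14.8% of the genes lower there, and 63 were higher. The sign matched for 338 of the 501 higher genes (67.5%), beside 52.5% of all 8473 genes above 0 in the GFP-only line, and for 141 of the 267 lower genes (52.8%), beside 47.5% of all genes below 0. Outside the 2-cell families and Gm symbols, 129 of 324 higher genes and 37 of 162 lower genes passed 2-fold the same way. The GFP-only line's GFP-negative library listed 48.4% of all symbols at 0, against 11.6% to 19.5% in the other 3 libraries, and its part in these counts was not tested.

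Some genes that passed 2-fold in both lines belonged to no list, and they are given in order of the smaller of the 2 ratios, chosen after their values were seen. Lgals4, a galectin of epithelia, stood at 4.32 and 46.2 TPM, and at 1.19 and 39.4 TPM in the GFP-only line. Ddhd1, a phospholipase, stood at 9.06 and 48.2 TPM, and at 1.82 and 24.9 TPM. Among lower genes, Rbm14, a coactivator and paraspeckle protein, stood at 41.2 and 14.4 TPM, and at 37.3 and 12.2 TPM. For each of these genes both GFP-positive libraries lay on the same side of both GFP-negative libraries.

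**Figure D2:**
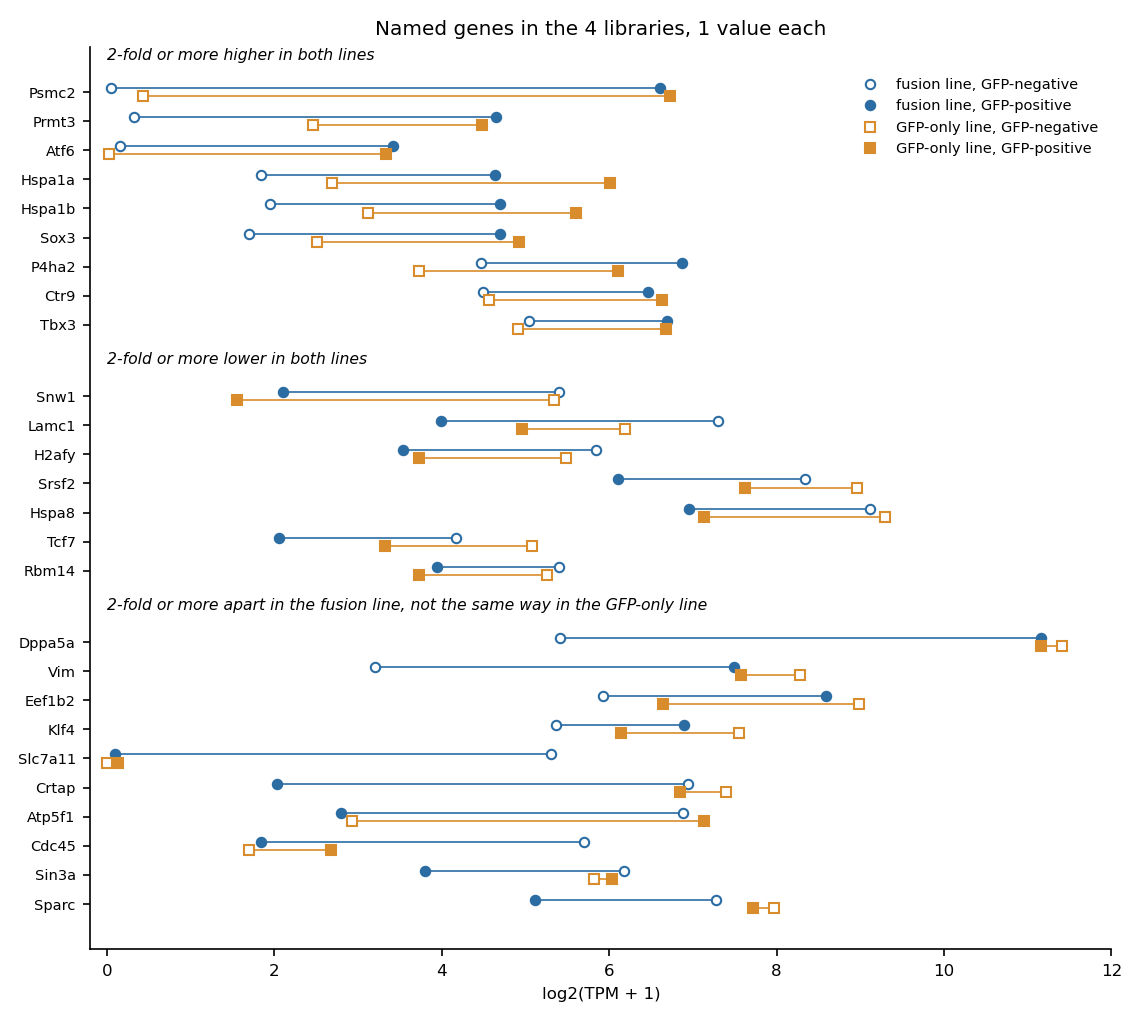
Named genes by library, with log2(TPM + 1) on the horizontal axis; blue circles are the fusion line and orange squares the GFP-only line, open for GFP-negative and filled for GFP-positive cells, 1 library each. In the first and second group the lines run the same way. In the last group, chosen after values were seen, the GFP-only line does not pass 2-fold in the direction of the fusion line. Crtap and Sparc fall in both lines. For Dppa5a, Vim, Crtap and Sparc 1 library of the fusion line stands apart from the other 3.

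Of 34 genes of the mitochondrial genome, 16 (47.1%) were higher and 1 lower. The tRNA genes made up 13 of the higher ones, and several of these reached the floor through the GFP-positive library alone. All 13 mitochondrial mRNAs lay above the median of all genes, their summed level being 9961 and 14749 TPM, and 9588 and 11569 TPM in the GFP-only line. The complex I subunits mt-Nd6, mt-Nd5 and mt-Nd3 were the 3 that passed 2-fold, and none of the 13 did in the GFP-only line. Values for mt-Nd6 were 287 and 959 TPM, and 311 and 499 TPM in the GFP-only line. Both mitochondrial rRNAs lay below the median of all genes, with a sum of 750.5 and 618 TPM. Their sum in the GFP-only line was 734 and 925 TPM, the opposite order. Since mt-Nd6 lies antisense to other mitochondrial transcripts and the strand used in counting is not given in the sources used here, reads from the opposite strand cannot be told apart from its own.

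Of 19 mitochondrial tRNA genes, 13 were higher and 1 lower, with a summed level of 548 and 1174 TPM, and of 528 and 675 TPM in the GFP-only line, where 8 were higher and 2 lower. Among the higher ones, mt-Tg, mt-Tv, mt-Ti, mt-Tk, mt-Ty, mt-Tm and mt-Tp were under 5 TPM in GFP-negative cells. They reached the floor through the GFP-positive library alone, so their direction was fixed by the filter. The sums cover all 22 mitochondrial tRNA genes. These tRNA genes are shorter than usual mRNA fragments, and reads of longer precursors can fall on them. The genes for histidine, serine (AGY) and leucine (CUN) tRNA lie in that order, with no gap, on the plus strand of the mitochondrial genome, and are shown because the middle gene went against its neighbours. From GENCODE transcripts on GRCm38, with the anticodon in capitals, they read as follows at chrM:11546-11612, chrM:11613-11671 and chrM:11671-11741.
mt-Th: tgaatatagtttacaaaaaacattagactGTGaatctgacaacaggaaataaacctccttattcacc
mt-Ts2: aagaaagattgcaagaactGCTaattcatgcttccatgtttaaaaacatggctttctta
mt-Tl2: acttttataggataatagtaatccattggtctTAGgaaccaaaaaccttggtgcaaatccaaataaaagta
The outer genes mt-Th and mt-Tl2 stood at 13.5 and 89.7 TPM and at 9.87 and 69.9 TPM. Between them mt-Ts2 stood at 13.8 and 1.29 TPM. In the GFP-only line the order differed, with mt-Th at 24.7 and 29.2 TPM, mt-Tl2 at 11.1 and 9.75 TPM and mt-Ts2 at 14.8 and 24.3 TPM.

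Small nuclear and other short structured RNAs leaned the other way. Of 35 small nuclear RNA genes, none was higher and 23 (65.7%) were lower, with a summed level of 638 and 327 TPM. The order was reversed in the GFP-only line, at 171 and 555 TPM, and 26 of the 30 genes above 0 in all 4 libraries were higher. All 4 U1 genes followed were lower, their sum being 65.5 and 22.5 TPM, against 3.44 and 49.5 TPM in the GFP-only line. U1 opens splicing by pairing with the 5′ splice site. The 5 U3 genes, which guide cleavage of the ribosomal RNA precursor, summed to 127 and 42.6 TPM, against 8.10 and 67.8 TPM. The 7SL and 7SK genes, of the signal recognition particle and of the P-TEFb inhibitory complex, summed to 838 and 354 TPM, against 49.95 and 338 TPM. In each of these groups the fusion line's GFP-negative library was the highest of the 4 and the GFP-only line's GFP-negative library the lowest. Most of these RNAs carry no poly-A tail and the libraries were poly-A enriched; the part of carry-over in these values was not tested.

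The U1 sequences of Rnu1a1 (chr11:87422867-87423030, plus strand) and Rnu1b1 (chr3:96359953-96360117, minus strand) show how alike such copies are, since a read from their shared stretches cannot be placed: 158 bases match of 164 and 165, and unmatched bases are in capitals.
Rnu1a1: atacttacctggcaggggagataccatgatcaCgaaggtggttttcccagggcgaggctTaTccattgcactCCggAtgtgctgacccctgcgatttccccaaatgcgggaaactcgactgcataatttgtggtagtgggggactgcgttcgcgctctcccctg
Rnu1b1: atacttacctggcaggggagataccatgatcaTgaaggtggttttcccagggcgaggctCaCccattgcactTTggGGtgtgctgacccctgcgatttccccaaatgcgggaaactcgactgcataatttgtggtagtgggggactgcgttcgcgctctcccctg
Rnu1a1 stood at 15.5 and 5.13 TPM and Rnu1b1 at 14.4 and 4.72 TPM. Their values in the GFP-only line were 1.65 and 8.50 TPM and 0.71 and 12.5 TPM, again in the opposite order for both copies.

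The replication-dependent histone genes split by histone. Of 53 genes followed, 6 were higher and none lower. All 10 histone H3 genes lay above the median of all genes, at a list median 0.66 above it, as did all 13 H2B genes at 0.38 above. Of 16 H2A genes only 1 lay above, and their median was 0.29 below. Hist1h3b stood at 8.49 and 31.6 TPM, and at 3.15 and 12.5 TPM in the GFP-only line. Summed H2A stood at 3918 and 3520 TPM, and at 4482 and 2994 TPM in the GFP-only line, while summed H3 stood at 87.7 and 173 TPM, and at 47.6 and 121 TPM. The summed H2A level was thus lower and the summed H3 level higher in the GFP-positive library of each line. These mRNAs end in a stem-loop in place of a poly-A tail and their copies share reads, and the part of either in the values was not tested.

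**Figure D3:**
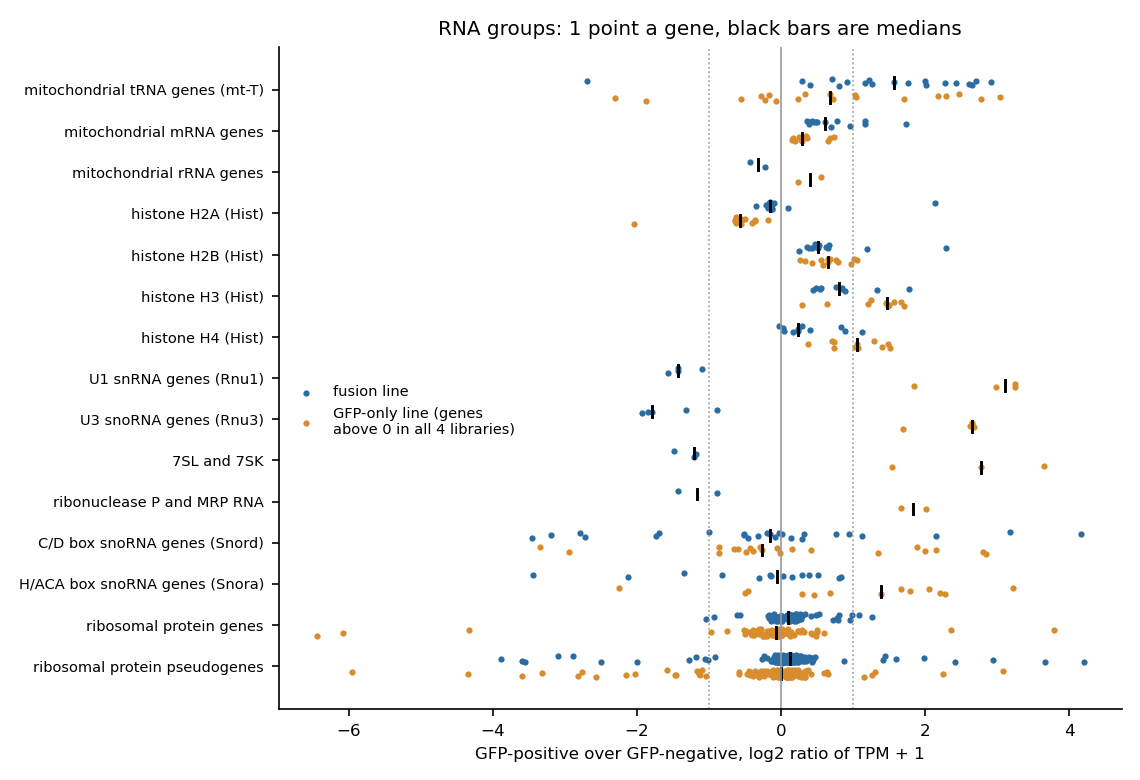
Each point is a gene of the named group, with the log2 ratio of TPM + 1, GFP-positive over GFP-negative, on the horizontal axis; blue points are the fusion line, orange points the GFP-only line for genes above 0 in all 4 libraries, black bars the medians and dotted lines 2-fold. U1, U3 and the 7SL and 7SK genes lie to the left in the fusion line and to the right in the GFP-only line, while the histone H2B and H3 genes lie to the right in both.

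At the level of transcripts, 14021 reference transcripts reached 5 TPM in either library and were above 0 in both. Of these 1710 (12.2%) were higher and 1366 (9.74%) lower, and a further 830 were listed at 0 in 1 library. Of 9269 genes that lay within 2-fold in total and had such a transcript, 927 had a transcript that was higher, 891 a transcript that was lower, and 395 both. Transcripts with a retained intron were apart more often than coding transcripts in both directions: 216 (20.5%) were higher and 225 (21.3%) lower of 1054, against 1070 (10.6%) and 783 (7.77%) of 10073. The same held for processed transcripts, at 23.0% and 20.3%, and for nonsense-mediated decay transcripts, at 18.9% and 21.6%. The summed share of retained-intron transcripts in the TPM of coding genes stood at 5.21% and 4.89%, and at 8.21% and 4.77% in the GFP-only line. The summed share of transcripts marked for nonsense-mediated decay stood at 1.60% and 1.72%, and at 1.05% and 1.64%.

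A transcript's share of its gene's TPM does not depend on the scaling of a library. Among 4581 genes with 2 or more transcripts above 0 in both libraries and 10 TPM in each, 875 (19.1%) had a transcript whose share differed by 25 percentage points or more between GFP-positive and GFP-negative cells. Of 3049 such genes in the GFP-only line, 1354 (44.4%) did. Between the lines, 1320 of 3022 genes (43.7%) differed so for the 2 GFP-negative libraries and 953 of 4740 (20.1%) for the 2 GFP-positive libraries. The fusion line's share thus lay near that between GFP-positive libraries of different lines. Of 2272 genes that could be read in both lines, 382 differed by 25 points in the fusion line. In the GFP-only line, 83 of these differed by 25 points the same way and 88 the opposite way, and 194 had the same sign, beside 518 of the 2272 (22.8%) at 25 points either way.

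The largest share differences in genes within 2-fold were near-complete exchanges, between coding models in all of the 12 genes but Edf1 and Glod4. For Edf1 the coding Edf1-201 gave way to processed transcripts with no reading frame, and for Glod4 the nonsense-mediated decay transcript Glod4-207 gave way to the coding Glod4-201. Capzb-204, of the actin capping protein β subunit, held 0.01% and 99.2% of its gene, but 89.5% and 0.10% in the GFP-only line. Cct3-208, of a chaperonin subunit, held 97.8% and 0.13%, but 1.32% and 96.1% in the GFP-only line. Tmsb10-203, of the actin-binding thymosin β10, held 0.07% and 96.2%, but 95.9% and 0.01% in the GFP-only line. All 3 exchanges thus ran in opposite directions in the 2 lines. Tspan4-201, Pcbd2-201, Myl12a-206, Spg7-201, 2310022A10Rik-201, Glod4-201, Edf1-201, Tmem147-201 and Tcp1-209 complete the 12 largest.

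Other shares differed in the same direction in both lines, and these were chosen after their values were seen. Chaf1b-201, of a histone chaperone subunit that loads new nucleosomes, held 85.6% and 6.72% of its gene, and 86.0% and 0.24% in the GFP-only line. Grb2-201, of a receptor tyrosine kinase adaptor, held 80.5% and 13.9%, and 90.5% and 13.9% in the GFP-only line. U2af2-207, a retained-intron transcript of the factor that binds the polypyrimidine tract, held 45.8% and 91.3%, and 2.47% and 92.7% in the GFP-only line. Ranbp1-203, a retained-intron transcript of a Ran-binding protein, held 3.56% and 48.3%, and 14.5% and 62.0%. For these genes the GFP-positive libraries of both lines lay on the same side of the GFP-negative ones.

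Rbm14, on the minus strand of chromosome 19, combines a lower total with an exchange of its 3′ part. Rbm14-201 joins its second exon to a further exon, whereas the second exon of Rbm14-202 reads on through that intron. The 30 bases before and after the point where the transcripts part, after 1882 shared bases, are shown from GENCODE transcripts on GRCm38, with the bases particular to each in capitals.
Rbm14-201: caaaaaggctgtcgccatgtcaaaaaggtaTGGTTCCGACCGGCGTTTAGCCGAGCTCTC
Rbm14-202: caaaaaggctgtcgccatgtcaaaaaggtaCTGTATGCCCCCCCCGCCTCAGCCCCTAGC
All of these bases are annotated as coding. Rbm14-201 stood at 35.8 and 0.05 TPM, and at 29.0 and 0.18 TPM in the GFP-only line. Rbm14-202 stood at 5.37 and 14.4 TPM, and at 0.42 and 12.1 TPM in the GFP-only line. The spliced form was thus the main form in both GFP-negative libraries and the form that reads on in both GFP-positive libraries, where it held 99.5% and 98.4% of the gene.

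**Figure D4:**
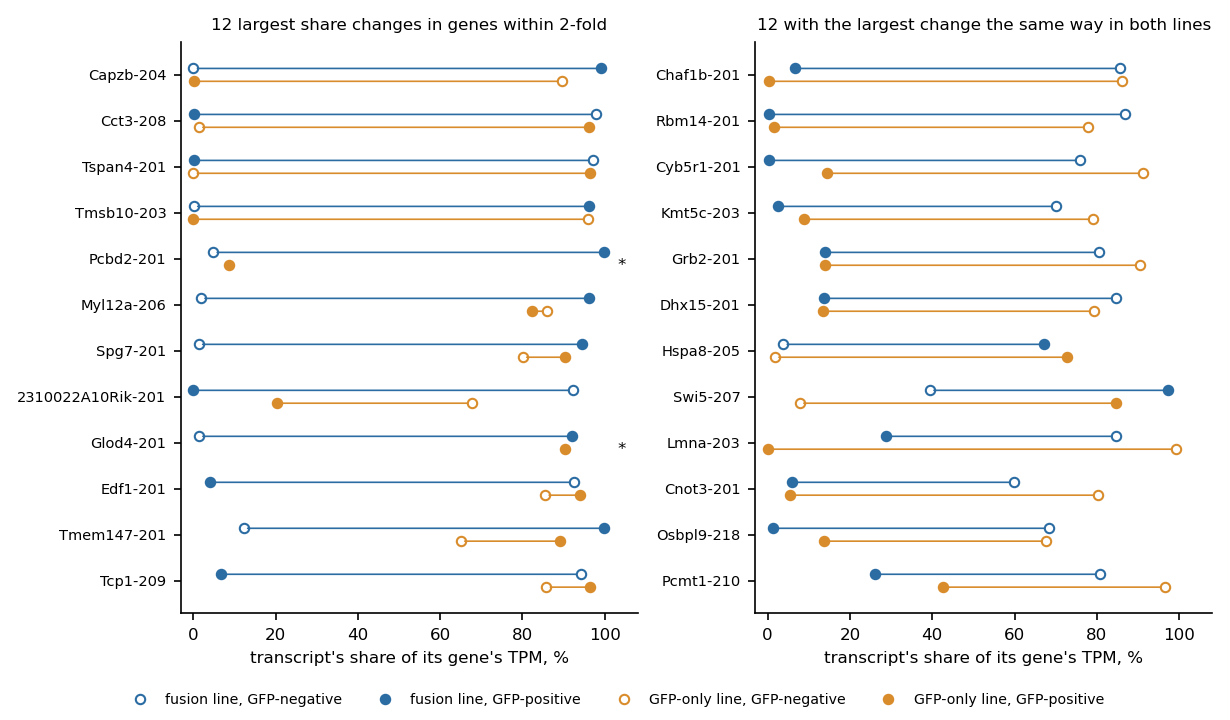
Share of a transcript in the summed TPM of its gene, in percent, in GFP-negative (open) and GFP-positive (filled) cells of the fusion line (blue) and the GFP-only line (orange). Left, the 12 largest differences in genes within 2-fold, where several blue and orange lines run in opposite directions; right, the 12 largest that run the same way in both lines, chosen for that; an asterisk marks a gene with no TPM listed in the GFP-only line's GFP-negative library.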

How the data were processed

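Oligo-dT purified RNA was fragmented and reverse transcribed from random hexamers, as the labels' protocols say. The authors deposited 1 table per library with a TPM value for each reference transcript. CASAVA, HISAT2 2.1.0 and StringTie 1.3.5 and the build GRCm38 (mm10) are named, with no role or order, per the submitters' processing notes; the annotation release used, the strand setting and the filters are, in the sources used here, not given. The listed TPM of a library summed to between 66.6% and 69.1% of the full TPM scale. Depth is unknown, and TPM keeps none.

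TPM was summed per gene symbol (83 symbols join more than 1 gene identifier, and 25 annotated genes have transcripts under more than 1 symbol) and log2 ratios were taken with a pseudocount of 1 TPM, a floor of 5 TPM in either library and values above 0 in both. Gene and transcript types came from GENCODE M21; 413 transcripts had no match. Genes named were the 15 largest increases and decreases outside the 2-cell families and Gm symbols, up to 4 members with the largest ratio and 3 of the most abundant of each of 60 gene lists with 5 or more genes followed, the 12 largest share differences in genes within 2-fold, Zscan4c with 5 family genes, and the 5 largest each way among genes listed at 0 in 1 library; other names are said to be chosen after their values were seen. Some genes that these rules pick are not reported here. The members and the gene lists were chosen with earlier results of these data known. With 1 library a group, no test was run and no replicate error is known. Scaling, pseudocount, floor, listed zeros and share threshold were varied. The counting code was checked on simulated tables. Python 3.11.15, pandas 2.3.3 and numpy 2.4.6 were used.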

Additional observations from a re-analysis of the deposited data

Results flagged for a closer look

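For 13 named genes the fusion line and the GFP-only line were 2-fold or more apart in opposite directions. The value given is the log2 ratio of GFP-positive over GFP-negative cells in the fusion line minus that in the GFP-only line. With 1 library a group the difference itself was not tested, and the GFP-only line's GFP-negative library listed 48.4% of symbols at 0. Among genes higher in the fusion line and lower in the GFP-only line, the difference was 10.05 for the pseudogene RP23-402P24.9, 8.59 for the rRNA repeat Rn18s-rs5 and 7.71 for the ribosomal protein gene Rps27. It was 5.00 for the elongation factor Eef1b2, 4.45 for the histone demethylase Phf8, 4.18 for the histone gene Hist3h2a, 2.95 for Klf4 and 2.57 for the ubiquitin-conjugating enzyme variant Ube2v1. Among genes lower in the fusion line and higher in the GFP-only line, it was -8.31 for Atp5f1, -5.65 for the small nucleolar RNA Snora52, -5.20 for the pseudogene Rps15a-ps6, -3.44 for Rmrp, the RNA of ribonuclease MRP, and -2.43 for Kif22. Rps27 stood at 7.30 and 18.9 TPM, against 887 and 9.21 TPM in the GFP-only line, and Phf8 at 2.33 and 12.4 TPM against 12.8 and 1.55 TPM.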

How the results depend on the processing

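Every group is 1 library, so no library could be left out. No paired analysis was possible because each group holds 1 library and the result comes from no test. With a pseudocount of 5 TPM, 444 genes were higher and 204 lower, and 1 list median lay farther than 0.2 from all genes, against 3 as reported; a floor of 10 TPM gave 5 and the other alternatives 2 to 4. Protein-coding genes alone gave 163 lower genes. A floor of 10 TPM left 1855 transcripts apart and a floor of 1 TPM 5692, against 3076. Genes with a transcript share apart numbered 528 with 20 TPM in each library, 1535 at 15 points and 431 at 40 points, against 875. Of genes higher in both lines, quantile normalization left 111 and keeping listed zeros gave 573, against 215; for genes lower in both, quantile normalization gave 129, against 69. The median of the long non-coding RNA list, -0.13 relative to all genes, was 0.00903 with a floor of 10 TPM. Totals over transcripts above 0 in both libraries, an alternative chosen after seeing the data, turned the log2 ratio of Atp5f1 to 0.35, Hspa8 to 1.23 and Map4 to 0.060, and left 19 of the other named genes under 2-fold; the listed zeros they leave out are the cause by construction. Regrouping transcripts by annotated gene, also chosen after seeing the data, turned Hnrnpu to 0.90 and changed the call of no other named gene it could be run on. The median log2 ratio relative to all genes ranged over 8 alternatives from 1.04 to 1.94 for mitochondrial tRNA genes and from -1.53 to -0.93 for small nuclear RNA genes. Of 138 named genes, 14 fell under 2-fold with median-ratio scaling, 24 with quantile normalization and 31 with a pseudocount of 5 TPM, none with a pseudocount of 0.1 TPM. The cause of the other shifts was not tested.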

Other observations

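Long non-coding RNAs, which the comparison above does not describe, had 3 higher and 4 lower of 22 genes in the fusion line. Over all genes 6.67% were higher and 3.01% lower. In the GFP-only line 3 of the 20 above 0 in all 4 libraries were higher and none lower. Neat1, the scaffold of paraspeckles, stood at 6.43 and 0.825 TPM, and at 4.34 and 5.09 TPM in the GFP-only line. Gas5, a host of C/D box small nucleolar RNAs, stood at 204 and 56.4 TPM, and at 92.3 and 84.9 TPM in the GFP-only line. Terc, the RNA template of telomerase, stood at 2.02 and 10.2 TPM, and at 1.28 and 3.95 TPM in the GFP-only line. Of these 3 RNAs only Terc differed by 2-fold or more in the same direction in both lines. AY036118, the most abundant gene annotated as a long intergenic RNA, was chosen after its values were seen. It stood at 30446 and 13263 TPM, against 10596 and 17917 TPM in the GFP-only line. Whether reads of other RNAs fall on AY036118 was not tested.

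Imprinted genes held 1 higher and 1 lower of 17, beside 6.67% and 3.01% of all genes. Plagl1, a zinc finger factor, stood at 31.1 and 94.8 TPM, and at 30.9 and 34.1 TPM in the GFP-only line. Meg3, a maternally expressed RNA, stood at 508 and 279 TPM, and at 350 and 218 TPM in the GFP-only line. Cd68, a lysosomal protein of phagocytes read as a marker of other cells, stood at 17.4 and 1.52 TPM, and at 17.4 and 14.5 TPM in the GFP-only line. Of the same list, Spi1 stood at 2.20 and 0 TPM, and at 0 and 1.35 TPM in the GFP-only line. Pecam1 stood at 32.8 and 31.1 TPM, and Hba-a1 and Cd34 were at or under 0.1 TPM in both libraries of the fusion line.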
